A study of Mus musculus with 24 samples.

Results

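NF-kappaB is a family of transcription factors, and this account follows its subunits and inhibitors in a mouse T-cell leukaemia line in which the Notch signal was blocked or restored. The genes were taken by name: the subunits Nfkb1, Nfkb2, Rel, Rela and Relb, the IkappaB inhibitors Nfkbia, Nfkbib and Nfkbie, and the upstream inhibitor Tnfaip3, 9 genes in all. Of these, 8 were measured among 19938 named genes, each by 1 probe set, and Nfkb1 was not analysed here. T6E is a line of mouse T-cell acute lymphoblastic leukaemia, and total RNA of these cells was hybridised to 24 Affymetrix Mouse Gene 1.0 ST arrays. The cells carried 1 of 4 constructs. R1984A is intracellular Notch1 with a defect in dimerization, ICN1 is intracellular Notch1 itself, DNMAML is a dominant negative form of the Notch coactivator MAML, and MigR1 is the empty retroviral vector. Cells of each construct spent 6 hours either with compound E at 1 uM, which inhibits gamma-secretase and is called GSI here, or with DMSO. The 8 groups, of 3 arrays each, are named by construct and treatment: R1984A-GSI, R1984A-DMSO, ICN1-GSI, ICN1-DMSO, DNMAML-GSI, DNMAML-DMSO, MigR1-GSI and MigR1-DMSO. All cells are of the 1 line T6E. What share of them carried a construct is not stated in the sources used here. No label states whether the 3 samples of a group were separate cultures, so the p-values reflect the spread among these samples, part of which may be technical.

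NF-kappaB factors are dimers of subunits that share a DNA-binding Rel homology region. Rela, Rel and Relb carry transactivation domains, whereas the products of Nfkb1 and Nfkb2 are made as precursors that are cut to the DNA-binding subunits p50 and p52. In resting cells the IkappaB proteins hold the dimers in the cytoplasm. In the canonical pathway the IkappaB kinase (IKK) marks IkappaB for degradation, and in the non-canonical pathway the kinase Map3k14 (NIK) leads to the cutting of the Nfkb2 precursor and to Relb-p52 dimers. Several inhibitors, among them Nfkbia and Tnfaip3, are themselves NF-kappaB targets and close a negative feedback loop. In T cells the pathway is activated through the antigen receptor and through receptors of the TNF family, and Notch1 has been linked to it in T-cell leukaemia. Protein cleavage and nuclear entry are not read by RNA levels.

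The set of RefSeq promoter windows used here covers 7 of the measured members, Relb being the one without an entry in it, and gives 10 windows for them. Each window runs from 250 bases before the start of a transcript to 50 bases after it, 300 bases in GRCm38.p6. The windows of the 5 members whose levels varied among the 8 groups are shown, for Nfkb2 the most upstream of its 3 and for Tnfaip3 the upstream one of its 2, since the results turn on these genes. They lie at chr19:46304487-46304786 on the plus strand for Nfkb2, chr11:23770920-23771219 on the minus strand for Rel, chr12:55492598-55492897 on the minus strand for Nfkbia, chr17:45555450-45555749 on the plus strand for Nfkbie and chr10:19015361-19015660 on the minus strand for Tnfaip3. Each is written 5′ to 3′ on the strand of the gene, and capitals mark matches to the kappaB motif, the sequence that NF-kappaB dimers bind, searched on both strands.
Nfkb2: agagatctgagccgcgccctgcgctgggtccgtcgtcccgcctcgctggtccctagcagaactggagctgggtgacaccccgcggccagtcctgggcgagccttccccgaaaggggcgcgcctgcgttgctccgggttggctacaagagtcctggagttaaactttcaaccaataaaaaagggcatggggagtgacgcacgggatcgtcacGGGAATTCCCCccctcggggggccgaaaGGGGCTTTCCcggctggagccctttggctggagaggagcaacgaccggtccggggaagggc
Rel: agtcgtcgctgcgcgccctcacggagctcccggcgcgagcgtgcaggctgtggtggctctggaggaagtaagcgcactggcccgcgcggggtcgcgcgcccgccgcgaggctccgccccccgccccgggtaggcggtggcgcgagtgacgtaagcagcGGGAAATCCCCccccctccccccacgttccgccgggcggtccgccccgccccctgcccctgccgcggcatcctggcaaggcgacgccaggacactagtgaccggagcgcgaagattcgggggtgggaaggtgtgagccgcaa
Nfkbia: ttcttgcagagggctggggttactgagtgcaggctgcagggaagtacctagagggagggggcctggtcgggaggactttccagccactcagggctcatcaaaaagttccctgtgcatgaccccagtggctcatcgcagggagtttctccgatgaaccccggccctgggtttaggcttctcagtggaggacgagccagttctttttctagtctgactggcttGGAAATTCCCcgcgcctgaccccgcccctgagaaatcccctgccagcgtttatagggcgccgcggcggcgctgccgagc
Nfkbie: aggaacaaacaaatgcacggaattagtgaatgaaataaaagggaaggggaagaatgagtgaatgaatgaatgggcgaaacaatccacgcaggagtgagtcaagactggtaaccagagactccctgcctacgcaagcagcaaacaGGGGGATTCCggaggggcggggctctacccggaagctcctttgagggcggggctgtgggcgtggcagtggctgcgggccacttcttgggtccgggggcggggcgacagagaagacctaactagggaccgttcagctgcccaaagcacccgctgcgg
Tnfaip3: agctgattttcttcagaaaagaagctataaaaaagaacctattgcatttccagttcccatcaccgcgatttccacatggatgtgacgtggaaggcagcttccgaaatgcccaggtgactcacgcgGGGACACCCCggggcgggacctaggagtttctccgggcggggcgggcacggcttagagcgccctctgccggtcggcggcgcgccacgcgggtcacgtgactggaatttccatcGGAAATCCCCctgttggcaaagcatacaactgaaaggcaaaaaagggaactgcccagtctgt
A kappaB match was found in 7 of the 10 windows and in 5 of the 7 members with a window, namely Nfkb2, Rel, Nfkbia, Nfkbie and Tnfaip3. The other Nfkb2 windows, not shown, overlap each other and share a kappaB match, so the 10 windows are not independent. Over all RefSeq promoter windows of the same length, 8.46% of 32851 held a match. Counted from the start of the transcript, the Nfkb2 window has the overlapping matches GGGAATTCCC (bases -39 to -30) and GGAATTCCCC (-38 to -29), and another at -11 to -2. Rel has 2 overlapping matches between bases -92 and -82, Nfkbia has 1 at -29 to -20, Nfkbie has 1 at -106 to -97, and Tnfaip3 has 1 at -125 to -116 and 1 at -12 to -3. The core of the motif of RBPJ, the DNA-binding partner of Notch, was searched as TGGGAA on both strands. It occurred in the windows of Rel, Nfkbib and Tnfaip3, and in 25.6% of all windows, and none of these matches overlapped a kappaB match. The window of Rela and the other window of Tnfaip3, at chr10:19011914-19012213 and not shown, held neither motif. A match describes the letters of a window, not binding.

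The deposited values are log2 expression values. The medians of the 24 arrays lay between 3.90 and 4.18, and arrays of a group correlated across genes with r of 0.982 to 0.994. Arrays numbered 3 had medians of 4.05 to 4.18, against 3.91 to 3.95 for arrays numbered 1. The Notch1 probe set averaged 7.07 in R1984A-GSI and 7.32 in ICN1-GSI, against 5.66 in MigR1-GSI, and where it lies relative to the part of Notch1 in the constructs was not examined. All 7 measured T-cell markers stood above every array median, with marker means of 8.51 to 8.98 per array. Of the 6 B-cell and 7 myeloid markers 0 did, with means of 3.00 to 3.28 and 3.01 to 3.24. Col1a1 at 5.06 was the highest of 5 stromal markers, of which 2 passed the array medians, and Gzma at 9.78 was the only one of 5 natural killer cell markers to do so. Of all these markers Thy1 and Gzma passed the F test described below, and their part in the results was not tested. In bulk RNA, fewer cells expressing a gene and less RNA per cell cannot be told apart.

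The 8 measured members fell into those that passed a test for any difference among the 8 groups and those that did not. That test does not separate construct from treatment. In limma's F test over the 8 groups, 5 members passed, Nfkb2, Rel, Tnfaip3, Nfkbia and Nfkbie, against 7.24% of all genes. A gene is called here when its Benjamini-Hochberg adjusted p over the 19938 genes is under 0.05. The group means of Nfkb2 spanned 0.97 (adjusted p = 2.0e-05) and those of Rel spanned 0.89 (adjusted p = 9.6e-05) on the log2 scale. The spans were 0.73 for Tnfaip3 (adjusted p = 7.4e-04), 0.77 for Nfkbie (adjusted p = 0.010) and 0.68 for Nfkbia (adjusted p = 0.0097). Relb spanned 0.41 (adjusted p = 0.055), and Rela and Nfkbib each spanned 0.33 (adjusted p = 0.99 and 0.92). For comparison, 97.3% of all genes had a smaller span than Nfkb2, and 57.3% had a smaller one than Rela. With each array centred on its median, 3 members passed, and Nfkbia (adjusted p = 0.10) and Nfkbie (adjusted p = 0.12) did not. Relb passed with array weights (adjusted p = 0.0063), with a second quantile normalization (adjusted p = 0.041), with every probe set in the fit (adjusted p = 0.045) and without R1984A-GSI replicate 2 (adjusted p = 0.048).

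**Figure D1:**
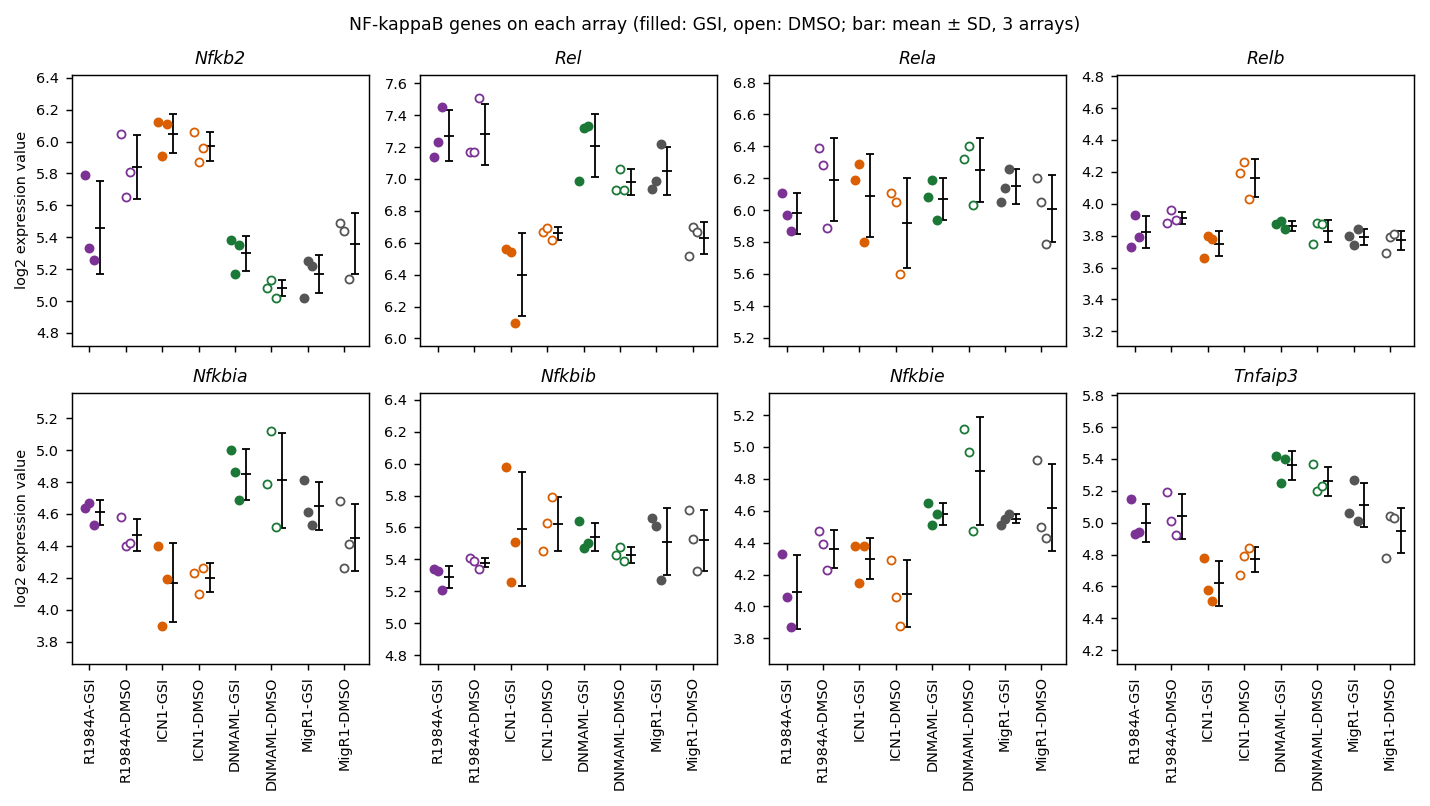
Log2 expression value of the 8 measured NF-kappaB genes on each of 24 arrays, by group, with filled points for GSI, open points for DMSO and bars for the mean ± SD of 3 arrays; each panel spans the same number of log2 units. Nfkb2 is highest in the ICN1 groups, at 5.97 and 6.05, Rel is highest in the R1984A groups, at 7.27 and 7.28, and Tnfaip3 and Nfkbia are lowest in the ICN1 groups.

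Nfkb2 (probe set 10463599, chromosome 19) encodes the p100 precursor of p52, which in its uncut form also acts as an inhibitor. Its levels were highest in cells with ICN1. In R1984A cells the 3 arrays read 5.79, 5.33 and 5.26 with GSI and 6.05, 5.65 and 5.81 with DMSO, so the GSI arrays reached lower than the DMSO arrays but overlapped them. In ICN1 cells they read 6.12, 5.91 and 6.11 with GSI and 6.06, 5.87 and 5.96 with DMSO. The ICN1 arrays thus stayed within a narrow band under both treatments. In DNMAML cells they read 5.38, 5.17 and 5.35 with GSI and 5.08, 5.13 and 5.02 with DMSO. In MigR1 cells they read 5.02, 5.25 and 5.22 with GSI and 5.49, 5.44 and 5.14 with DMSO. All 6 ICN1 arrays lay above all 12 arrays of DNMAML and MigR1, whose highest value was 5.49. In the order of group means from 6.05 in ICN1-GSI to 5.08 in DNMAML-DMSO, every group overlapped the next one in at least 1 array.

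Under GSI, Nfkb2 averaged 6.05 ± 0.12 in ICN1 cells and 5.17 ± 0.12 in MigR1 cells (SD, 3 arrays each). The difference of 0.88 (SE 0.13, 95% interval 0.60 to 1.16, limma adjusted p = 2.1e-04) is a 1.84-fold higher level, and it was called in all 16 settings tried. In DMSO, Nfkb2 averaged 5.97 ± 0.09 in ICN1 cells and 5.36 ± 0.19 in MigR1 cells, a difference of 0.61 (SE 0.13, interval 0.33 to 0.89, adjusted p = 0.027). That call had an adjusted p of 0.0066 with the replicate number as a block, and it was kept in 1 of 6 fits that left out 1 array. Its adjusted p was 0.071 without MigR1-DMSO replicate 2, 0.22 without replicate 3, and 0.16, 0.056 and 0.12 without ICN1-DMSO replicates 1, 2 and 3, and 0.089 with each array centred on its median.

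Nfkb2 was lower with the dimerization mutant than with ICN1 in the presence of GSI. R1984A-GSI averaged 5.46 ± 0.29 and ICN1-GSI 6.05 ± 0.12, a difference of -0.59 (SE 0.13, interval -0.87 to -0.31, limma adjusted p = 0.028) that put all 3 mutant arrays below the ICN1 arrays. This call was lost without ICN1-GSI replicate 1 (adjusted p = 0.12) or 3 (0.12) and without R1984A-GSI replicate 2 (0.16) or 3 (0.19), and with each array centred on its median (0.12). In DMSO the 2 constructs differed by -0.13, with an interval of -0.41 to 0.15 and arrays that overlapped. Against the empty vector, R1984A was at 0.29 with GSI (interval 0.01 to 0.57, adjusted p = 0.61) and at 0.48 with DMSO (interval 0.20 to 0.76, adjusted p = 0.12), with its arrays above those of MigR1 both times. With GSI the arrays barely separated, the lowest of R1984A at 5.26 and the highest of MigR1 at 5.25. With DMSO these were at 5.65 and 5.49. With the replicate number as a block the DMSO difference had an adjusted p of 0.037. The GSI response of R1984A cells minus that of ICN1 cells was -0.46 (interval -0.86 to -0.07, adjusted p = 1.0), so the dependence of the Nfkb2 gap on GSI did not pass the test.

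Rel (probe set 10384725, chromosome 11) encodes c-Rel, the lymphoid subunit with roles in T-cell activation and interleukin production. Its group means were highest in the R1984A groups and lowest in ICN1-GSI, while ICN1-DMSO and MigR1-DMSO lay 0.03 apart. In R1984A cells the arrays read 7.14, 7.23 and 7.45 with GSI and 7.17, 7.17 and 7.51 with DMSO. In ICN1 cells they read 6.56, 6.54 and 6.10 with GSI and 6.67, 6.69 and 6.62 with DMSO. The 6 R1984A arrays (7.14 to 7.51) thus lay apart from the 6 ICN1 arrays (6.10 to 6.69). DNMAML cells read 6.99, 7.32 and 7.33 with GSI and 6.93, 7.06 and 6.93 with DMSO. MigR1 cells read 6.94, 6.99 and 7.22 with GSI and 6.52, 6.70 and 6.67 with DMSO. In MigR1 cells the GSI arrays all lay above the DMSO arrays, and in ICN1 cells they all lay below them. Ordered by mean, the groups fell into an upper set from 7.28 in R1984A-DMSO to 6.98 in DNMAML-DMSO and a lower set of ICN1-DMSO, MigR1-DMSO and ICN1-GSI from 6.66 to 6.40. The gap of 0.32 between the sets was the only step at which the arrays of neighbouring groups did not overlap.

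Rel was higher with R1984A than with ICN1 under both treatments. With GSI, Rel averaged 7.27 ± 0.16 in R1984A cells and 6.40 ± 0.26 in ICN1 cells, a difference of 0.87 (SE 0.13, interval 0.60 to 1.15, limma adjusted p = 7.5e-04) or 1.83-fold, called in 15 of 16 settings, the exception being the fit of only these 2 groups (adjusted p = 0.066). With DMSO it averaged 7.28 ± 0.19 in R1984A cells and 6.66 ± 0.04 in ICN1 cells, a difference of 0.62 (SE 0.13, interval 0.35 to 0.90, adjusted p = 0.017). The DMSO call was lost without ICN1-DMSO replicate 1 (adjusted p = 0.065), 2 (0.055) or 3 (0.10) and without R1984A-DMSO replicate 3 (0.14), and with a second quantile normalization (0.13). With the replicate number as a block its adjusted p was 0.0061. The difference between these GSI and DMSO gaps was 0.25 (interval -0.14 to 0.64, adjusted p = 1.0).

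Against the empty vector, Rel was lower with ICN1 under GSI and higher with R1984A in DMSO. ICN1-GSI, at 6.40 ± 0.26, was lower than MigR1-GSI, at 7.05 ± 0.15, by -0.65 (SE 0.13, interval -0.93 to -0.38, limma adjusted p = 0.0058). Without ICN1-GSI replicate 3, the lowest array, the difference was -0.51 (adjusted p = 0.057). R1984A-DMSO, at 7.28 ± 0.19, was higher than MigR1-DMSO, at 6.63 ± 0.10, by 0.65 (SE 0.13, interval 0.37 to 0.93, adjusted p = 0.011). Without MigR1-DMSO replicate 1 that adjusted p was 0.079, without R1984A-DMSO replicate 3 it was 0.10, and with a second quantile normalization it was 0.21. With the replicate number as a block it was 0.0040. The other pairs were not called: R1984A-GSI over MigR1-GSI was at 0.22 (interval -0.06 to 0.50) and ICN1-DMSO over MigR1-DMSO at 0.03 (interval -0.25 to 0.31). The MigR1 means lay apart between treatments without a call, with MigR1-GSI over MigR1-DMSO at 0.42 (interval 0.14 to 0.70, limma adjusted p = 0.56). The GSI response of ICN1 cells minus that of MigR1 cells was -0.68 for Rel (interval -1.07 to -0.29, limma adjusted p = 1.0).

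Relb (probe set 10560575, chromosome 7) encodes the main partner of p52 in the non-canonical pathway. Its probe set read between 3.66 and 4.26, and outside ICN1-DMSO most arrays lay below the lowest array median of 3.90. ICN1-DMSO stood apart, with arrays at 4.19, 4.26 and 4.03, whereas ICN1-GSI read 3.66, 3.80 and 3.78. MigR1 cells read 3.80, 3.74 and 3.84 with GSI and 3.69, 3.79 and 3.81 with DMSO. No array of the other 7 groups reached the lowest ICN1-DMSO array, and their highest value was the 3.96 of R1984A-DMSO. Relb averaged 4.16 ± 0.12 in ICN1-DMSO and 3.77 ± 0.06 in MigR1-DMSO, a difference of 0.40 (SE 0.09, interval 0.21 to 0.58, limma adjusted p = 0.037). The call was kept in 6 of 15 settings, and of the 6 fits that left out 1 array it was kept in 1, without ICN1-DMSO replicate 3. The adjusted p was 0.20, 0.11 and 0.092 without MigR1-DMSO replicates 1, 2 and 3, and 0.17 and 0.21 without ICN1-DMSO replicates 1 and 2. It was 0.059 with each array centred on its median, 0.13 with trend and robust moderation and 0.013 with the replicate number as a block. Within ICN1 cells, GSI over DMSO was at -0.41 for Relb (interval -0.60 to -0.23, limma adjusted p = 1.0), in a comparison in which limma called 0 of 19938 genes.

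Rela (probe set 10460631, chromosome 19) encodes p65, the main transactivating subunit of the canonical pathway. It gave no call in any comparison. Its arrays spread from 5.60 to 6.40, and its group means ran from 6.25 in DNMAML-DMSO to 5.92 in ICN1-DMSO with every group overlapping the next. Arrays numbered 3 deviated from their group means by -0.19 on average. The intervals leave room for differences of moderate size: for ICN1-GSI over MigR1-GSI the interval was -0.39 to 0.28, and for R1984A-GSI over ICN1-GSI it was -0.44 to 0.23.

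Among the inhibitors, Tnfaip3 (probe set 10368144, chromosome 10) encodes A20, a ubiquitin-editing enzyme that restrains signalling to IKK. It was highest in DNMAML cells and lowest in ICN1 cells. R1984A arrays read 5.15, 4.93 and 4.94 with GSI and 5.19, 5.01 and 4.92 with DMSO. ICN1 arrays read 4.78, 4.58 and 4.51 with GSI and 4.67, 4.79 and 4.84 with DMSO. All ICN1 arrays thus lay below all R1984A arrays. DNMAML arrays read 5.42, 5.25 and 5.40 with GSI and 5.37, 5.20 and 5.23 with DMSO. MigR1 arrays read 5.06, 5.27 and 5.01 with GSI and 4.78, 5.04 and 5.03 with DMSO. The lowest DNMAML array, at 5.20, lay above the highest ICN1 array, at 4.84, and the arrays of R1984A and MigR1 cells overlapped each other.

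Tnfaip3 was lower in ICN1-GSI, at 4.62 ± 0.14, than in MigR1-GSI, at 5.11 ± 0.14. The difference was -0.49 (SE 0.11, interval -0.72 to -0.26, limma adjusted p = 0.016), a 1.40-fold lower level. The adjusted p was 0.11 without MigR1-GSI replicate 2, 0.064 without ICN1-GSI replicate 2, 0.086 without ICN1-GSI replicate 3 and 0.15 with each array centred on its median. In DMSO the same constructs were at -0.18 (interval -0.41 to 0.05, adjusted p = 0.95). R1984A-GSI over ICN1-GSI was at 0.38 (interval 0.15 to 0.61, adjusted p = 0.14), with all mutant arrays above the ICN1 arrays. DNMAML-DMSO over MigR1-DMSO was at 0.32 (interval 0.08 to 0.55, adjusted p = 0.22), again with no overlap of arrays.

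Nfkbia (probe set 10400405, chromosome 12) encodes IkappaB-alpha, the inhibitor that is degraded and remade fastest on activation. Its group means ordered the constructs much as those of Tnfaip3 did, from 4.85 in DNMAML-GSI to 4.17 in ICN1-GSI. R1984A arrays read 4.64, 4.67 and 4.53 with GSI and 4.58, 4.40 and 4.42 with DMSO. ICN1 arrays read 4.40, 3.90 and 4.19 with GSI and 4.23, 4.10 and 4.26 with DMSO. The ICN1 groups had the lowest means of the 8 groups. DNMAML arrays read 5.0, 4.86 and 4.69 with GSI and 4.79, 5.12 and 4.52 with DMSO, all above the ICN1 arrays. MigR1 arrays read 4.81, 4.61 and 4.53 with GSI and 4.68, 4.26 and 4.41 with DMSO. R1984A and MigR1 arrays overlapped each other, and every R1984A array was at or above the highest ICN1 array of 4.40.

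No pairwise comparison called Nfkbia in the fit used here. ICN1-GSI averaged 4.17 ± 0.25 and MigR1-GSI 4.65 ± 0.15, a difference of -0.48 (SE 0.15, interval -0.79 to -0.18, limma adjusted p = 0.10). Array weights gave an adjusted p of 0.022 for it. R1984A-GSI over ICN1-GSI was at 0.45 (interval 0.14 to 0.75, adjusted p = 0.23, and 0.013 with array weights), and DNMAML-DMSO over MigR1-DMSO at 0.36 (interval 0.05 to 0.66, adjusted p = 0.34, and 0.046 with array weights).

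Nfkbie (probe set 10445412, chromosome 17) encodes IkappaB-epsilon, an inhibitor that binds mainly Rela and Rel dimers. Its arrays read mostly lower in cells with either form of intracellular Notch1. R1984A arrays read 4.33, 4.06 and 3.87 with GSI and 4.47, 4.39 and 4.23 with DMSO, and ICN1 arrays read 4.38, 4.15 and 4.38 with GSI and 4.29, 4.06 and 3.88 with DMSO. DNMAML arrays read 4.65, 4.51 and 4.58 with GSI and 5.11, 4.97 and 4.47 with DMSO. MigR1 arrays read 4.51, 4.55 and 4.58 with GSI and 4.92, 4.50 and 4.43 with DMSO. Over both treatments, the 12 R1984A and ICN1 arrays lay between 3.87 and 4.47 with a median of 4.26, and the 12 DNMAML and MigR1 arrays lay between 4.43 and 5.11 with a median of 4.56. That split was chosen after the values were seen and carries no test.

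The pairwise differences of Nfkbie did not pass the threshold. ICN1-DMSO over MigR1-DMSO was at -0.54 (SE 0.16, interval -0.86 to -0.22, limma adjusted p = 0.17), and its adjusted p was 0.019 with the replicate number as a block and 0.039 with array weights. R1984A-GSI over MigR1-GSI was at -0.46 (SE 0.16, interval -0.79 to -0.14, adjusted p = 0.28), with all mutant arrays below the vector arrays, and at an adjusted p of 0.041 with array weights. ICN1-GSI over MigR1-GSI was at -0.24 (adjusted p = 0.68) and R1984A-DMSO over MigR1-DMSO at -0.26 (adjusted p = 0.89). The values went with the array number as well. Over the 8 groups, Nfkbie deviated from the group mean by 0.15 on average in arrays numbered 1 and by -0.13 in arrays numbered 3. Other members shifted too, among them Nfkbia by 0.12 in arrays numbered 1 and Rela by -0.19 in arrays numbered 3. The part of these shifts in the differences was not tested.

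Nfkbib (probe set 10561516, chromosome 7) encodes IkappaB-beta, an inhibitor that is resynthesised more slowly. Like Rela it was called nowhere. Its arrays ranged from 5.21 to 5.98, and the group means ran from 5.62 in ICN1-DMSO to 5.29 in R1984A-GSI with every group overlapping the next. R1984A-GSI over ICN1-GSI was at -0.29 (interval -0.59 to 0.01, adjusted p = 0.58).

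The comparisons address what blocking Notch and restoring it with or without dimerization did to these genes. Of the 8 measured members, ICN1-GSI over MigR1-GSI called 3, with Nfkb2 higher and Rel and Tnfaip3 lower, where 2.35% of all genes were called. R1984A-GSI over MigR1-GSI called 0 by limma, with 2 at an unadjusted p under 0.05, where 1.36% of genes were called and 7.51% were at that unadjusted limit. The median difference of the members was -0.15 and -0.07 in these 2 comparisons, against -0.01 over all genes both times, and both use the MigR1-GSI arrays. R1984A-GSI over ICN1-GSI called 2, with Rel higher and Nfkb2 lower, where 1.10% of genes were called. The members' median difference there was -0.02, with 0.00 over all genes, and the called members went in opposite directions. In fits of only the 2 groups compared, Nfkb2 in ICN1-GSI over MigR1-GSI was the only call of a member that remained in any comparison of groups.

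In DMSO, where the cells' own Notch1 could still be cleaved, ICN1 over MigR1 called 2 members, Nfkb2 and Relb, both higher, where 0.727% of genes were called. R1984A-DMSO over MigR1-DMSO called 1, Rel, where 0.978% of genes were called, and with the replicate block it called 2, Nfkb2 being the other. R1984A-DMSO over ICN1-DMSO called 1, again Rel, where 0.963% of genes were called. These DMSO comparisons share arrays pairwise and are given side by side. With 8 genes, 1 member is already a larger share than these backgrounds, and the counts are small.

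Blocking Notch gave no call among the members. Nrarp, a Notch feedback gene, was lower in MigR1-GSI than in MigR1-DMSO by -1.21 (limma adjusted p = 1.5e-06). In DNMAML-DMSO over MigR1-DMSO it was at -1.24 (adjusted p = 5.0e-07). The Notch target Hes1 was at -0.45 (adjusted p = 0.52) and -0.65 (adjusted p = 0.012) in these comparisons. The Hes1 call in DNMAML-DMSO was kept in 12 of 16 settings. MigR1-GSI over MigR1-DMSO called 0 of 8 by limma, with 1 at an unadjusted p under 0.05 (Rel, above), where 0.166% of genes were called and 4.88% were at that unadjusted limit. DNMAML-DMSO over MigR1-DMSO called 0, with 4 at an unadjusted p under 0.05, where 1.94% of genes were called and 10.4% were at that unadjusted limit. The 4 were Rel at 0.35 (adjusted p = 0.28), Tnfaip3 at 0.32, Nfkbia at 0.36 and Nfkb2 at -0.28 (adjusted p = 0.47). The median of the 8 differences was 0.23, with 0.00 over all genes. DNMAML-GSI over MigR1-GSI called 0 members, with 1 at an unadjusted p under 0.05 (Tnfaip3, 0.24), where 0.191% of genes were called and 6.26% were at that unadjusted limit. DNMAML-GSI over DNMAML-DMSO called 0 with 0 at an unadjusted p under 0.05, where 0.00502% of genes, a single one, were called and 2.54% were at that unadjusted limit.

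**Figure D2:**
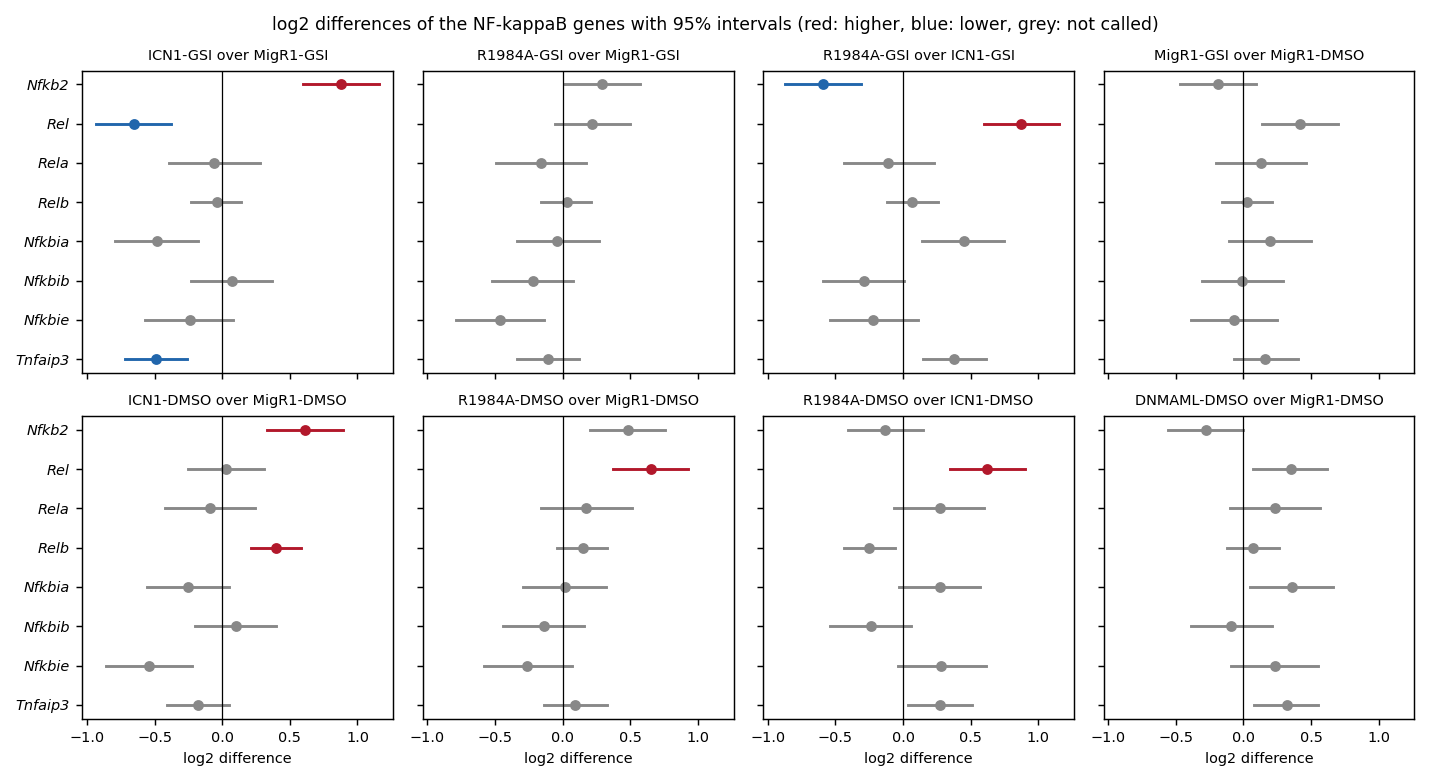
Log2 differences of the 8 measured genes in 8 comparisons, named above each panel, with points for the estimate and lines for its 95% interval; red points were called higher, blue points lower and grey points not called. Nfkb2 is at 0.88 and Rel at -0.65 in ICN1-GSI over MigR1-GSI, and R1984A-GSI over ICN1-GSI has them at -0.59 and 0.87.

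Within cells carrying intracellular Notch1, which does not need gamma-secretase, GSI gave no call. ICN1-GSI over ICN1-DMSO and R1984A-GSI over R1984A-DMSO each called 0 members and 0% of genes by limma, with 2.37% and 3.18% of all genes at an unadjusted p under 0.05. Among the members that unadjusted limit was passed by Relb in ICN1 cells, given above, and by Nfkb2 in R1984A cells, at -0.38 (interval -0.66 to -0.10, adjusted p = 1.0). The GSI response was also compared between constructs. Relative to MigR1 cells it was called for 0 members in DNMAML, ICN1 and R1984A cells, where 0.00502%, 0.0150% and 0.0251% of genes were called, with 1, 2 and 1 members and 3.11%, 3.19% and 3.52% of genes at an unadjusted p under 0.05. R1984A relative to ICN1 called 0 members and 0% of genes, with 2.31% of genes and 3 members at an unadjusted p under 0.05: Nfkb2 at -0.46, Relb at 0.32 and Nfkbie at -0.50.

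Of the 92 measured genes of 4 lists around the members in the pathway, 11 passed the F test over the 8 groups, against 7.24% of all genes. Of 21 measured upstream kinases and adaptors, 2 passed, Prkcq, the protein kinase C theta that carries the antigen receptor signal to NF-kappaB, and Ikbke, an IKK-related kinase. Of 15 other inhibitors and modifiers 1 passed, Cyld, a deubiquitinase that restrains the pathway. Of 24 receptors and ligands 4 passed, the receptors Tnfrsf1b (TNF receptor 2) and Cd27 and the ligands Tnf and Ltb (lymphotoxin beta). Of 32 target genes 4 passed, the survival genes Bcl2l1 and Cflar, the activation marker Cd69 and the chemokine receptor Ccr7.

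In ICN1-GSI over MigR1-GSI, 4 of the 92 genes of these lists fell and 0 rose. Of all genes 2.35% were called there, 214 lower and 255 higher. Cd27 had 8.02, 7.88 and 7.81 in ICN1-GSI, against 8.68, 8.58 and 8.37 in MigR1-GSI, a difference of -0.64 (SE 0.13, limma adjusted p = 0.0059). Ltb had 5.36, 5.41 and 5.57 in ICN1-GSI, against 6.47, 6.00 and 6.05 in MigR1-GSI, a difference of -0.73 (SE 0.17, adjusted p = 0.017). Prkcq was at -0.59 (SE 0.12, adjusted p = 0.0069) and Cd69 at -0.72 (SE 0.16, adjusted p = 0.013). All 4 calls were lost with each array centred on its median, at adjusted p-values of 0.11, 0.10, 0.063 and 0.088. Leaving out ICN1-GSI replicate 3 took the adjusted p of Prkcq to 0.056 and of Cd69 to 0.11. Cd69 was also lost without MigR1-GSI replicate 1 (0.051) or 2 (0.078), and Ltb without MigR1-GSI replicate 1 (0.13) or ICN1-GSI replicates 1 (0.080) and 2 (0.061). By list, 1 of 21 kinases and adaptors, 0 of 15 inhibitors and modifiers, 2 of 24 receptors and ligands and 1 of 32 targets fell. The list medians were 0.01, -0.02, -0.08 and -0.07.

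DNMAML-DMSO over MigR1-DMSO called 3 of the 92 genes of the lists, all higher, where 1.94% of all genes were called, 220 higher and 166 lower. Ltb had 6.88, 6.68 and 6.70 in DNMAML-DMSO, against 5.98, 5.67 and 5.52 in MigR1-DMSO, a difference of 1.03 (SE 0.17, limma adjusted p = 0.0011) that was called in all 16 settings. Prkcq rose by 0.60 (SE 0.12, adjusted p = 0.0091), and the call was lost without MigR1-DMSO replicate 2 (adjusted p = 0.061), DNMAML-DMSO replicate 2 (0.053) or DNMAML-DMSO replicate 3 (0.050). Cflar rose by 0.49 (SE 0.13, adjusted p = 0.046). Its call was lost in 5 of 6 fits that left out 1 array, at 0.22, 0.15 and 0.051 without MigR1-DMSO replicates 1, 2 and 3 and at 0.17 and 0.25 without DNMAML-DMSO replicates 2 and 3, and with a second quantile normalization (0.092). By list, 1 of 21 kinases and adaptors, 0 of 15 inhibitors and modifiers, 1 of 24 receptors and ligands and 1 of 32 targets rose, with list medians of 0.07, 0.00, 0.00 and -0.04. The markers Thy1 of T cells and Gzma of natural killer cells were called higher in the same comparison. Thy1 averaged 9.44 ± 0.07 in DNMAML-DMSO and 8.72 ± 0.14 in MigR1-DMSO (SD, 3 arrays each), a difference of 0.72 (limma adjusted p = 0.0079). Gzma averaged 10.13 ± 0.03 in DNMAML-DMSO and 9.70 ± 0.05 in MigR1-DMSO, a difference of 0.43 (limma adjusted p = 0.039). The other 6 T-cell and 4 natural killer cell markers measured were not called, and the part of these markers in the list genes' differences was not tested.

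R1984A-GSI over MigR1-GSI called 1 of the 92 genes of the lists, Tnf, a ligand that activates the canonical pathway, where 1.36% of all genes were called, 207 higher and 65 lower. It had 5.94, 5.33 and 5.09 in R1984A-GSI, against 4.82, 4.74 and 4.54 in MigR1-GSI, a difference of 0.76 (SE 0.19, limma adjusted p = 0.045). The call was kept in 9 of 16 settings, and of the 6 fits that left out 1 array it was kept in 1, without R1984A-GSI replicate 3. It was lost without MigR1-GSI replicates 1 (0.079), 2 (0.12) or 3 (0.18), without R1984A-GSI replicates 1 (0.34) or 2 (0.083), and with each array centred on its median (0.23). In fits of only the groups compared, of these calls only those of Ltb and Prkcq in DNMAML-DMSO over MigR1-DMSO were kept. R1984A-GSI over ICN1-GSI called 0 genes of the lists by limma, with 3 of 21, 3 of 15, 5 of 24 and 3 of 32 at an unadjusted p under 0.05, against 8.88% of all genes. MigR1-GSI over MigR1-DMSO also called 0, with 0, 2, 3 and 2 at that unadjusted limit, against 4.88% of all genes.

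**Figure D3:**
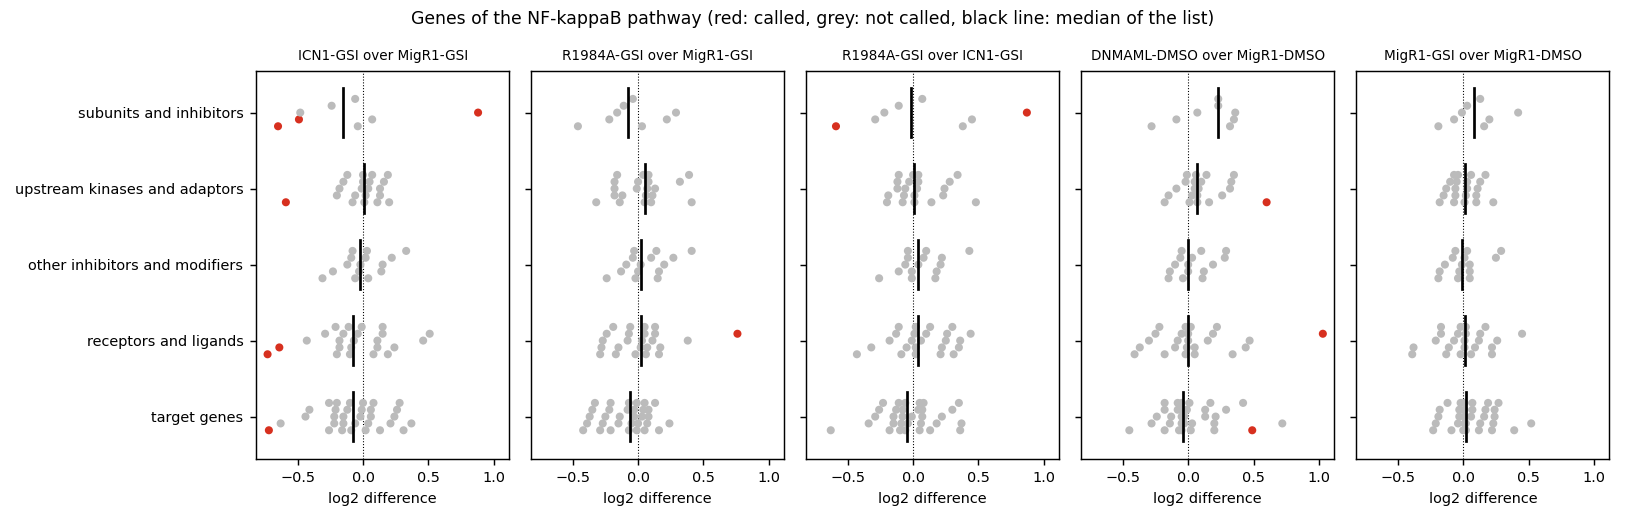
Log2 differences of the measured NF-kappaB subunits and inhibitors and of 4 lists of pathway genes in 5 comparisons, with 1 point per gene, red where called, and a black line at the list's median. Most genes of each list lie close to 0, and the called genes, such as Ltb at 1.03 in DNMAML-DMSO over MigR1-DMSO, sit at the edges.

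By rule, the 3 members with the widest span of group means were each set against the 1439 other genes that passed the F test, and the 3 genes with the highest Pearson r over the 8 group means were named. Nfkb2 was most like Lgi1 (r = 0.966), Hes1 (r = 0.964) and Mdfi (r = 0.961). Hes1, a transcriptional repressor and Notch target, averaged 4.72 in R1984A-GSI, 5.44 in ICN1-GSI and 4.36 in MigR1-GSI, which is the order of Nfkb2 in these groups. Lgi1 lay between 2.50 and 4.25, at or below the array medians in most groups. Rel was most like Nckap1l, a subunit of the haematopoietic WAVE complex (r = 0.948), Frem2 (r = 0.940) and the integrin beta 7 gene Itgb7 (r = 0.938). Nfkbie was most like Tmem120b (r = 0.946), the retinoid X receptor gene Rxrg (r = 0.937) and the T-cell surface gene Thy1 (r = 0.926). These r-values describe 8 group means from the same 24 arrays and were the highest of 1439, so they carry no p.

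**Figure D4:**
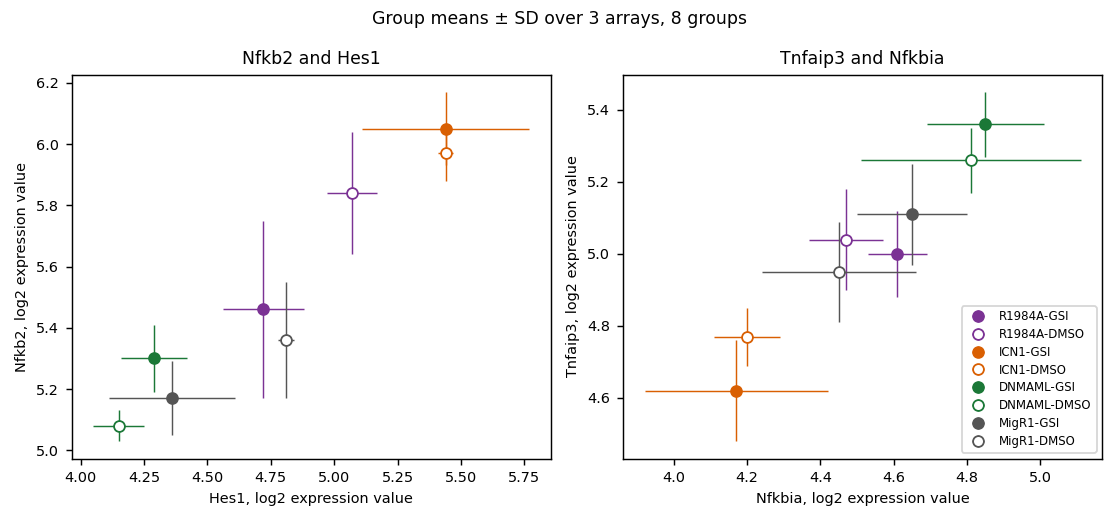
Group means of Nfkb2 against Hes1 and of Tnfaip3 against Nfkbia over 8 groups, in log2 expression values, with lines for the SD over 3 arrays; filled points are GSI and open points DMSO. The ICN1 groups lie at the top right in the left panel, at 5.44 for Hes1, and at the bottom left in the right panel, at 4.17 and 4.20 for Nfkbia.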

How the data were processed

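Total RNA of 24 samples was measured on Affymetrix Mouse Gene 1.0 ST arrays. The authors deposited 1 log2 value per probe set and array. The authors used oligo and limma, per the submitters' processing notes, and the background correction, normalization and summarization are not described in the sources used here. The log2 scale was read from the values, which run from 1.28 to 13.47.

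Gene names came from the array's platform annotation. Of 35556 probe sets, 21789 had 1 symbol, 1621 had several and 12146 none, and 21698 matched RefSeq by gene identifier with 0 symbols changed. Where several probe sets named a gene (999 genes), the brightest by mean was used, giving 19938 genes, and dim genes were not filtered. Nfkb1 had no probe set with its symbol alone.

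All 24 arrays were fitted together, each group with its own mean, by limma 3.58.1 under R 4.3.3 (16 residual and 6.56 prior degrees of freedom), two-sided, adjusted by Benjamini-Hochberg over 19938 genes with a threshold of 0.05. There were 12 comparisons of groups, 4 of GSI responses and 1 F test. The fit was tested on simulated data. The members, pathway lists, markers and tests were chosen with earlier results of these data known. By rule every member is given, with up to 3 called genes per direction, list and main comparison, the genes most like the 3 members of widest span, and Notch1, Nrarp and Hes1 as label checks. Nrarp, a Notch feedback gene, averaged 6.12 in R1984A-GSI and 6.37 in ICN1-GSI, against 4.09 in MigR1-GSI.

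The titles number the samples of a group. Same-numbered samples deviated together with every correlation above 0.1 in 7 comparisons of groups, for which the lowest was 0.114 (DNMAML over MigR1 in DMSO) to 0.225 (DNMAML over MigR1 with GSI), and in the difference of GSI responses between DNMAML and MigR1 (0.106). Alternatives were the replicate block, only the groups compared, every probe set or their mean, a filter at the median probe set, array centring, second quantile normalization, trend and robust moderation, array weights and leaving out arrays. The number of arrays limits the precision.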

Additional observations from a re-analysis of the deposited data

How the results depend on the processing

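Of the differences called among the members, none changed direction under any alternative, and the calls moved as follows. With only the groups compared in the fit, 1 member was called in ICN1-GSI over MigR1-GSI, and 0 in R1984A-GSI over ICN1-GSI, ICN1-DMSO over MigR1-DMSO, R1984A-DMSO over MigR1-DMSO and R1984A-DMSO over ICN1-DMSO. Leaving out 1 array in turn gave 1 to 3 called members in ICN1-GSI over MigR1-GSI, 1 to 2 in R1984A-GSI over ICN1-GSI, 0 to 1 in ICN1-DMSO over MigR1-DMSO and 0 to 1 in R1984A-DMSO over MigR1-DMSO and over ICN1-DMSO. Centring each array gave 2 in ICN1-GSI over MigR1-GSI, 1 in R1984A-GSI over ICN1-GSI, 0 in ICN1-DMSO over MigR1-DMSO and 3 in the F test. A second quantile normalization gave 0 in R1984A-DMSO over MigR1-DMSO and over ICN1-DMSO. In ICN1-DMSO over MigR1-DMSO the filter on dim genes, which removed Relb, left 1, and trend and robust moderation left 1. Array weights gave 1 in DNMAML-DMSO over MigR1-DMSO, 1 in R1984A-GSI over MigR1-GSI, 4 in ICN1-GSI over MigR1-GSI, 3 in R1984A-GSI over ICN1-GSI and 3 in ICN1-DMSO over MigR1-DMSO, where Nfkbie was added. Without all arrays numbered 3, an alternative chosen after seeing the data, ICN1-GSI over MigR1-GSI and R1984A-GSI over ICN1-GSI each had 1, and the 3 DMSO comparisons that involve ICN1 or R1984A each had 0. The cause of these shifts was not tested, beyond the fewer arrays or genes in a fit.

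The replicate block gave 2 in R1984A-DMSO over MigR1-DMSO, where the numbers paired the samples, and 1 (Nfkbie) in R1984A-GSI over MigR1-GSI, where at least 1 pair of same-numbered samples fell below the limit. In ICN1-GSI over MigR1-GSI, also without pairing by that limit, the block gave Nfkbia an adjusted p of 0.028, and in the F test it gave Relb one of 0.018. The block changed no other call of a member than these and those given beside the results. Over all genes the block moved the counts from 33 to 82 for GSI in MigR1 cells, 386 to 934 for DNMAML, 469 to 960 for ICN1-GSI, 272 to 496 for R1984A-GSI and 220 to 577 for R1984A-GSI over ICN1-GSI. Over all alternatives the counts ran from 4 to 82, 178 to 934, 167 to 960, 96 to 690 and 51 to 739 in these 5 comparisons, so the percentages given beside the members' counts move with the setting.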

Other observations

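Members can move together across groups without doing so within them. Over the 8 group means, Nfkbia and Tnfaip3 had a Pearson r of 0.97, while the deviations of single arrays from their group means had an r of -0.01. Nfkb2 ran the other way from both, with an r of -0.88 with Nfkbia and -0.82 with Tnfaip3 over group means, and 0.30 and 0.36 within groups. Rel had an r of 0.72 with Nfkbia and 0.74 with Tnfaip3 over group means, and -0.29 and -0.13 within groups. Some pairs moved together at both levels. Nfkbia and Nfkbie had an r of 0.63 over group means and 0.58 within groups, and Rela and Nfkbie had 0.70 and 0.60. Others did not: Nfkb2 and Nfkbie had -0.73 over group means and 0.61 within groups, and Nfkbia and Nfkbib had -0.45 and 0.65. The within-group values include shifts with the array number, averaging 0.12 for Nfkbia, 0.15 for Nfkbie and 0.10 for Rela in arrays numbered 1. In arrays numbered 3 these shifts averaged -0.08, -0.13 and -0.19, and their part in the r-values was not tested. The points share arrays and a normalization, and these values are descriptions with no p.

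Cyld, the deubiquitinase among the other inhibitors, read 7.29, 7.13 and 7.13 in R1984A-GSI and 6.88, 7.09 and 6.93 in ICN1-GSI, against 7.28, 7.26 and 7.27 in MigR1-GSI. In DMSO it read 7.27, 7.18 and 7.36 in DNMAML cells, against 7.0, 7.06 and 6.89 in MigR1 cells. Cyld passed the F test but no comparison of the 5 main ones called it. Outside those comparisons, Tnfrsf1b was lower in ICN1-DMSO than in MigR1-DMSO by -0.63 (SE 0.12, limma adjusted p = 0.0078), at means of 4.58 and 5.21, and its adjusted p was 0.074 without MigR1-DMSO replicate 3 and 0.070 without ICN1-DMSO replicate 2. In R1984A-DMSO over ICN1-DMSO, Ltb was at 0.82 (adjusted p = 0.014) and Ccr7 at -0.71 (adjusted p = 0.021). Ltb lost its call without ICN1-DMSO replicates 2 (0.082) or 3 (0.080) or R1984A-DMSO replicates 1 (0.11) or 2 (0.054), and Ccr7 without ICN1-DMSO replicate 3 (0.22) or R1984A-DMSO replicates 1 (0.11) or 2 (0.12).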
